A study of Mus musculus with 4 samples.

Results

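Splicing factors and the kinases that phosphorylate them were examined in mouse adult neural stem cells with and without a knockdown of Ogt. The set held 52 listed genes in 6 roles: 12 SR proteins, 6 SR protein kinases (the CLK kinases Clk1, Clk2, Clk3 and Clk4 with Srpk1 and Srpk2), 15 hnRNPs, 7 factors that recognise the branch point and the 3′ splice site, 7 proteins of the snRNPs and the catalytic core, and 5 SR-related proteins of nuclear speckles. Ensembl identifiers were matched to symbols in GENCODE M21, and all 52 were found among the 25261 identifiers. All 52 passed the filter on low values.

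The cells came from C57BL/6 mice of 8 weeks. Both groups were infected with a lentivirus: ctrl (n = 2) carried a scramble shRNA and shOGT (n = 2) an shRNA against mouse Ogt, the gene of O-GlcNAc transferase. Nothing in the labels tells separate cultures from repeat libraries of 1 culture, so p-values here measure only the spread between these libraries, which may be technical. Neither the vector's promoter nor the share of infected cells is given in the sources used here. Each library was measured by RNA sequencing of total RNA.

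Splicing removes introns from the primary transcript. The U1 snRNP pairs with the 5′ splice site, SF1 and the U2AF dimer mark the branch point, the polypyrimidine tract and the terminal AG, and the U2 snRNP with its SF3A and SF3B complexes then replaces SF1. The U4/U6.U5 tri-snRNP joins, and SNRNP200 and PRPF8 remodel it into the catalytic spliceosome. SR proteins mostly promote and hnRNPs often repress the use of nearby sites, and CLK and SRPK kinases phosphorylate the arginine-serine repeats of SR proteins. Many of these genes tune their own output: a poison exon or a retained intron keeps part of the transcript out of translation. O-GlcNAc, the sugar that OGT attaches, is known to affect the splicing of such retained introns, which is why a knockdown of Ogt bears on these genes.

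The annotation lists such transcript classes, which do not by themselves show that a gene tunes its own output. Of the 52 genes, 36 (69.2%) have an annotated transcript subject to nonsense-mediated decay and 43 (82.7%) one of the retained-intron class. Among the 8878 protein-coding genes at or above the mean level of the lowest of the 52 (Snrpn, 260), 31.4% and 65% do. Those coding genes were not matched to the set by level. All 6 kinases have both classes, and 11 of the 12 SR proteins have a decay transcript. An intron of the main coding transcript lay whole inside a retained-intron transcript in 29 of the 52 genes (55.8%), against 28.1% of those coding genes. These 29 genes gave 55 introns of at least 60 bases, with a median length of 391 bases (78 to 3300).

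Introns 3 and 4 of the CLK genes are shown because they flank exon 4. Skipping of that exon in Clk1 is known to give a protein without the kinase domain. Intron 3 of Sf3b2 and intron 41 of Snrnp200 are shown because these were the genes of the set that passed the test. Introns 15 and 40 of Snrnp200 also lay inside a retained-intron transcript and are not shown. Each 5′ splice site runs from the last 3 exon bases into the first 12 bases of the intron, and each 3′ splice site from the last 27 intron bases into the next 3 of the exon. Sequences are in sense orientation from GENCODE M21 transcripts (GRCm38), and capitals mark the first GT and the last AG of the intron.
Clk1 intron 3, 5′ splice site: gggGTatgagtgcct
Clk4 intron 3, 5′ splice site: tcgGTatgagtggtt
Clk2 intron 3, 5′ splice site: tcaGTgagtgccagc
Clk3 intron 3, 5′ splice site: tcgGTgagtggtggc
Clk1 intron 4, 5′ splice site: gatGTatagaatatt
Clk4 intron 4, 5′ splice site: gatGTatagaatatt
Clk2 intron 4, 5′ splice site: gatGTacaagccaaa
Clk3 intron 4, 5′ splice site: gatGTacagccacct
Clk1 intron 4, 3′ splice site: tgaataataattattcctcttttttAGatg
Clk4 intron 4, 3′ splice site: gacctctctttctctcccttactttAGatg
Sf3b2 intron 3, 5′ splice site: cagGTaagagattgc
Sf3b2 intron 3, 3′ splice site: ttcatagctgtatttttttccccatAGctg
Snrnp200 intron 41, 5′ splice site: aagGTgagctaagtg
Snrnp200 intron 41, 3′ splice site: ctctcctgacctgcatacccactgtAGgga

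The intron 4 donors of Clk1 and Clk4 were identical over all 15 bases, while their acceptors shared 14 of 30. Against the 9-base donor consensus CAGGTAAGT, the intron 4 donors of Clk1, Clk2, Clk3 and Clk4 each matched at 4 positions. So did the donor of Srpk1 intron 10, and 4 was the lowest among the 55 introns, whose median was 6. The donor of Sf3b2 intron 3 matched at 8. The introns lie at chr1:58419734-58420120 on the minus strand (Clk1 intron 4), chr11:51273169-51273559 on the plus strand (Clk4 intron 4), chr19:5293320-5294298 on the minus strand (Sf3b2 intron 3) and chr2:127238236-127238499 on the plus strand (Snrnp200 intron 41). The deposited values are 1 number per gene and do not separate spliced from retained transcripts, so retention of these introns was not measured here. Whether reads inside them were counted for the gene is not given in the sources used here.

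The libraries held 15697508 to 17753976 reads assigned to genes, recovered from the step between the deposited values. Neural stem cell markers were abundant: Sox2 measured 5250 to 5429 and Vim 30676 to 33435 over the 4 libraries, and the 11 markers summed to 139757 and 143546 in ctrl and 130833 and 135823 in shOGT. Among them, Fabp7 (29543 and 30451 against 20417 and 22434) fell in limma. The 5 microglial markers in the files summed to 6.94 to 12.3, the 3 endothelial ones to 14 to 35.1 and the 4 of pericytes and fibroblasts to 28.3 to 50.6. The listed markers Cx3cr1, Cldn5, Cdh5, Dcn and Lum were not among the matched identifiers. All 25261 identifiers were above 0 in at least 1 library, so absence of a marker could only show in this way. Mog, which defines mature oligodendrocytes, was at most 0.997. The 9 neuronal markers summed to 16000 and 16511 in ctrl and 18122 and 17949 in shOGT. Nearly all of it was Map2 (15469 and 15954 against 17564 and 17269), which rose in limma (adjusted p = 0.0313). Both shOGT values were also above both ctrl values for Rbfox3, Snap25, Syp and Slc17a7 (at most 5.66), none of which passed. Dcx measured 40.9 and 66.5 against 19.1 and 29.2, both lower (limma adjusted p = 0.0894). The groups overlapped for Tubb3, Syt1 and Gad1. The 5 astrocytic markers summed to 15324 and 15046 against 13615 and 14495; the part of these markers in the results below was not tested. The ctrl libraries held Ogt at 4112 and 4137, and shOGT at 3379 and 3516, so both shOGT libraries lay below both ctrl libraries. Its mean was 16.4% lower (log2 fold change -0.26 ± 0.04 SE, limma adjusted p = 0.00876). On the recovered reads, edgeR and DESeq2 gave adjusted p values of 0.000818 and 0.000397. In limma the adjusted p was 0.115 without a filter on low values, 0.0936 with quantile normalization and 0.349 without the variance trend. With 1 library left out in limma, the estimate for Ogt ran from -0.29 to -0.23, and whether Ogt passed depended on the library left out.

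Of the 52 genes, 2 rose and 0 fell in limma (adjusted p under 0.05): Sf3b2, a subunit of the SF3B complex that steadies the U2 snRNP on the branch point, and Snrnp200, the helicase that unwinds U4 from U6. Over all 21829 genes tested, 427 rose (1.96%) and 633 fell (2.90%), or 593 and 585 with libraries rescaled to equal totals. The 2 of 52 (3.85%) thus stood beside a background of 4.86% in either direction, and of 10.3% among the 9108 genes at or above the lowest level in the set. The median log2 fold change of the set was -0.005 (all genes tested, 0.001), and its median absolute change was 0.06, against 0.10 among those 9108 genes. Those genes were not matched to the set by level. At an unadjusted p under 0.05, 11 were higher and 5 lower, together 16 of 52, where 19.3% of all genes tested and 32.9% of the 9108 were. DESeq2 on the recovered reads likewise gave 2 higher and 0 lower.

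The intervals of the main limma fit show how large a change between these libraries that fit leaves room for. They measure only the spread between these libraries, and their width depends on the variance trend. Without the trend, 0 of the 52 genes had an unadjusted limma p under 0.05, against 16 with it. The 95% interval of the log2 fold change lay within ±0.3 (1.23-fold) for 50 of the 52 genes (96.2%) and within ±0.4 (1.32-fold) for all of them. Of the 9108 genes at or above the lowest level in the set, 68.5% and 86.9% had such intervals. That level was the mean of Snrpn (260), while the lowest mean was 683 among the SR proteins and 2356 among the hnRNPs. The 9108 genes were not matched to the set by level, and the part of level in this difference was not tested. The estimates ran from -0.20 for Snrpa to 0.19 for Snrnp200, and the outermost interval bounds were -0.33 and 0.28. Both shOGT values lay outside the range of both ctrl values in 33 of the 52 genes (63.5%), 18 higher and 15 lower. The background was 49.3% of all genes tested (25.0% higher and 24.3% lower) and 61.7% of the 9108. Since these are bulk libraries, a different share of cells of a type and a different amount of RNA per cell cannot be told apart.

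**Figure D1:**
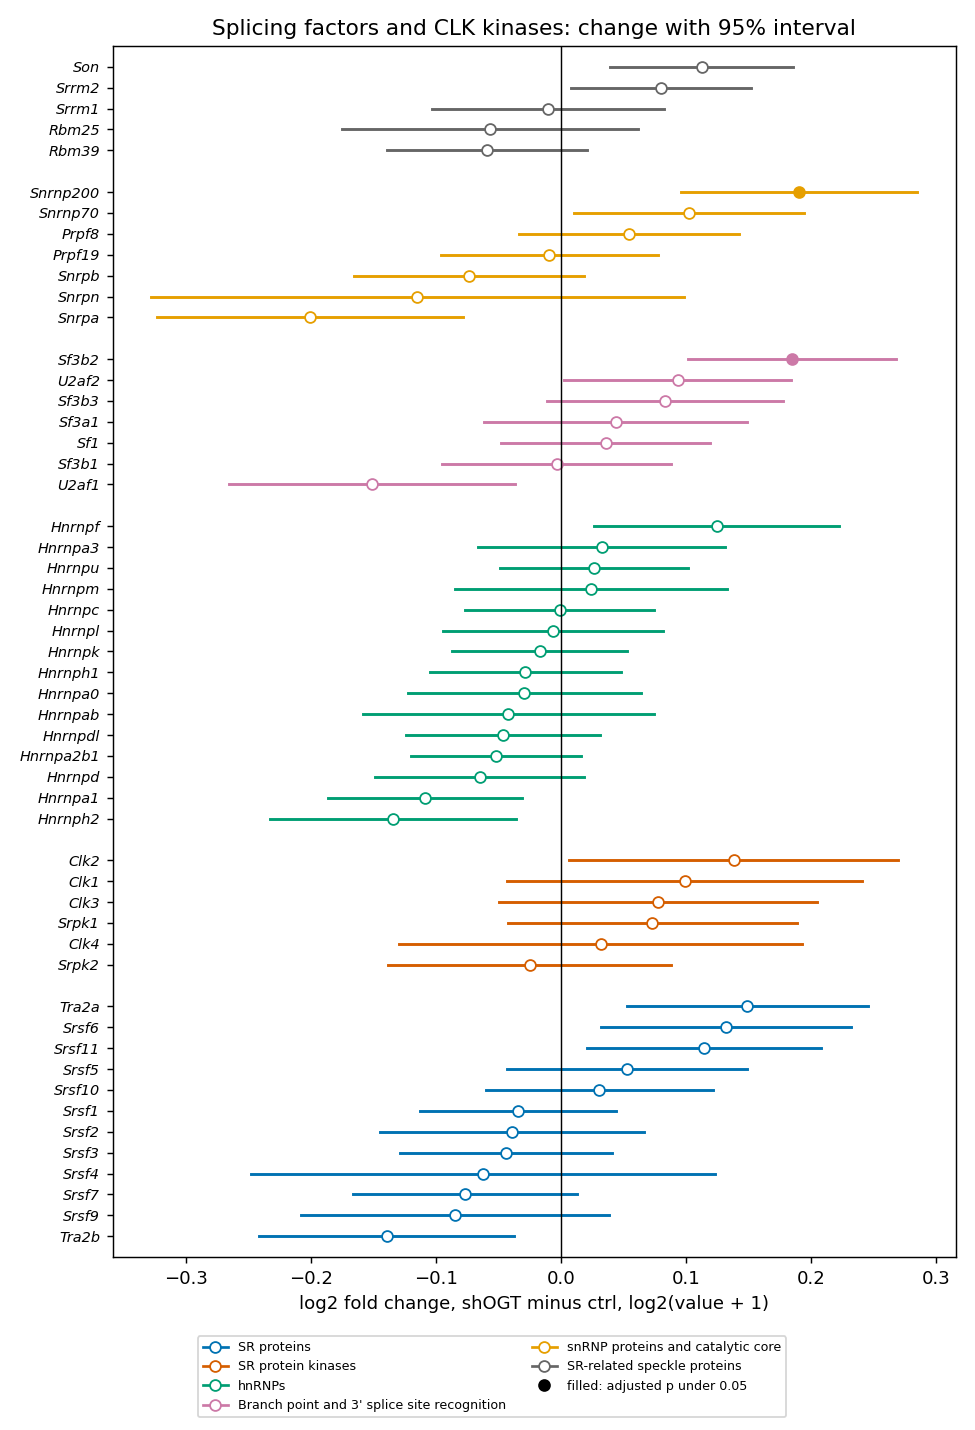
Log2 fold change (shOGT minus ctrl, horizontal axis) of each of the 52 genes with its 95% interval from limma, coloured by role; filled points passed an adjusted p of 0.05. The 2 filled points are Snrnp200 (0.19) and Sf3b2 (0.18), and every interval stays between -0.33 and 0.28.

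Sf3b2 (chr19:5273932-5295455, minus strand of GRCm38) measured 5349 and 5185 in ctrl against 6043 and 5927 in shOGT. Both shOGT libraries were above both ctrl libraries, by more than the gap within either group. The mean rose from 5267 ± 116 to 5985 ± 81.8 (SD, n = 2 each), or 13.6%, a log2 fold change of 0.18 ± 0.04 (SE; 95% interval 0.10 to 0.27; limma adjusted p = 0.0241). Snrnp200 (chr2:127208386-127240451, plus strand) measured 3331 and 3493 in ctrl against 3937 and 3848 in shOGT, again without overlap. Its mean rose by 14.1%, from 3412 ± 114 to 3892 ± 63 (log2 fold change 0.19 ± 0.04, interval 0.10 to 0.28, adjusted p = 0.0342).

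Both estimates kept their sign in every alternative fit, and the call depended on the fit. The adjusted p of Sf3b2 and Snrnp200 was 0.135 and 0.149 without a filter on low values, 0.123 and 0.123 with quantile normalization and 0.417 and 0.42 without the variance trend in limma. Without ctrl 1 it was 0.0178 and 0.165, without ctrl 2 0.096 and 0.0149, without shOGT 1 0.29 and 0.299, and without shOGT 2 0.289 for each. Estimates over these 4 fits ran from 0.16 to 0.21 for Sf3b2 and from 0.16 to 0.22 for Snrnp200. On whole reads recovered from the values, edgeR's quasi-likelihood test gave adjusted p values of 0.00476 and 0.00755. With 1 library left out, edgeR's estimates ran from 0.16 to 0.21 for Sf3b2 and from 0.16 to 0.22 for Snrnp200. Whether either gene passed in edgeR depended on the library left out. With all 4 libraries, edgeR called 5 of the 52 genes higher and 1 lower, where it called 12.7% of 15531 genes (5.51% higher and 7.15% lower). Besides these, Srsf6 (0.0487), Son (0.0382) and Tra2a (0.0393) were higher and Snrpa (0.0321) was lower, with edgeR's adjusted p in brackets.

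**Figure D2:**
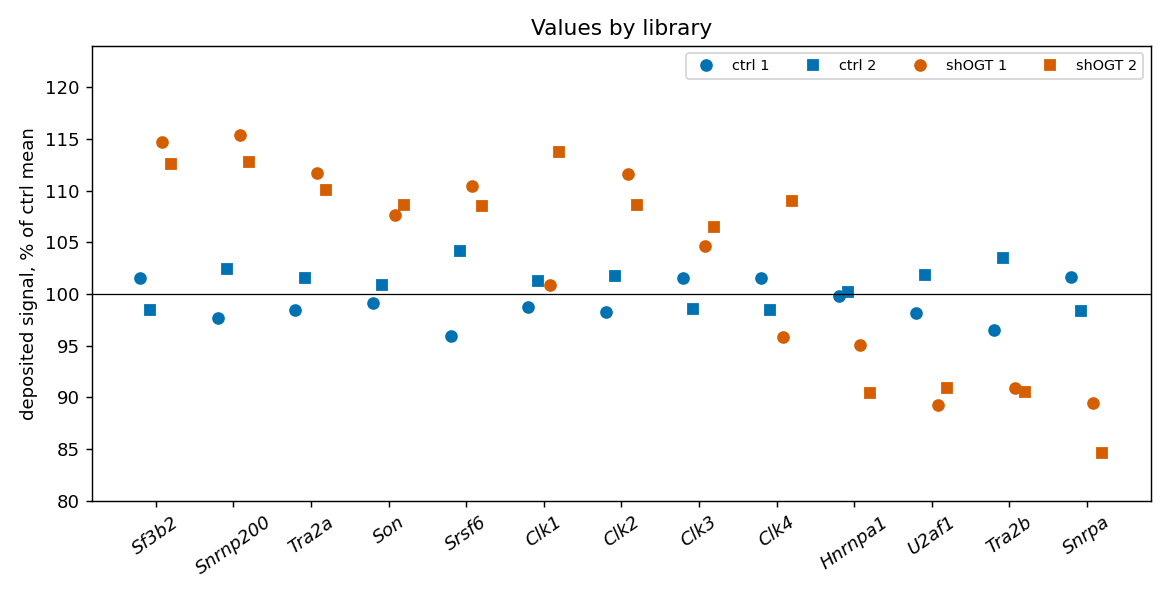
Deposited signal of 13 of the genes in each library, as a percentage of that gene's ctrl mean (vertical axis, from 80); blue is ctrl, orange shOGT, circles replicate 1 and squares replicate 2. Sf3b2, Snrnp200, Tra2a, Son, Srsf6, Clk2 and Clk3 have both shOGT points above both ctrl points, Hnrnpa1, U2af1, Tra2b and Snrpa have both below, and the groups overlap for Clk1 and Clk4.

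Among the 12 SR proteins and their TRA2 relatives, which bind exonic enhancers through RNA recognition motifs, 0 passed the limma test in either direction. At an unadjusted p under 0.05, 3 were higher and 1 lower, and edgeR called 2 higher. The TRA2 paralogues, which bind GAA-rich enhancers, differed in sign. Tra2a measured 2389 and 2465 in ctrl against 2710 and 2672 in shOGT (log2 fold change 0.15 ± 0.04, limma adjusted p = 0.0859). Tra2b measured 3303 and 3542 in ctrl against 3110 and 3099 in shOGT (-0.14 ± 0.05, adjusted p = 0.125), and a processed pseudogene named for Tra2b may share its reads. The groups did not overlap for either gene, in opposite directions, and the difference between the paralogues was not tested.

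Srsf6 measured 5631 and 6115 in ctrl against 6485 and 6372 in shOGT (0.13 ± 0.04, limma adjusted p = 0.137). Its ctrl libraries lay further apart than its shOGT libraries; without ctrl 2 it passed (0.19, adjusted p = 0.0299) and without ctrl 1 the estimate was 0.07 (adjusted p = 0.614). Srsf11 measured 4083 and 4127 against 4318 and 4570 (0.11 ± 0.04). The founding family members sat near their ctrl level. Srsf1, the factor first known as ASF/SF2, measured 7091 and 7136 in ctrl against 7034 and 6856 in shOGT (-0.03, interval -0.11 to 0.04). Srsf2, also known as SC35, measured 3935 and 4020 against 4032 and 3715, with overlap (-0.04, interval -0.15 to 0.07). Its exons overlap those of Mettl23 over 15.6% and of Mfsd11 over 9.74% of their length, both on the opposite strand. Srsf3, which regulates itself through a poison exon, measured 6167 and 6414 against 6180 and 6021 (-0.04, interval -0.13 to 0.04). The other 5 SR proteins (Srsf4, Srsf5, Srsf7, Srsf9 and Srsf10) ran from -0.09 for Srsf9 to 0.05 for Srsf5, the SR protein of the highest level per kb of exon (1684 in ctrl).

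The 6 SR protein kinases gave 0 calls in limma and 0 in edgeR, with 1 at an unadjusted p under 0.05. The CLK kinases work in the nucleus and release SR proteins from speckles, while SRPK1 and SRPK2 phosphorylate them mainly in the cytoplasm. All 4 CLK genes had estimates above 0, with a median of 0.09. Clk1 measured 1348 and 1382 in ctrl against 1377 and 1552 in shOGT, so that shOGT 2 alone lay clear of ctrl (0.10, interval -0.04 to 0.24, limma adjusted p = 0.445). Clk2 measured 809 and 838 against 919 and 894, both higher (0.14, interval 0.01 to 0.27, adjusted p = 0.235). Clk3 measured 914 and 887 against 942 and 959 (0.08, interval -0.05 to 0.20). Clk4 measured 870 and 844 against 821 and 934, with overlap (0.03, interval -0.13 to 0.19; -0.06 without shOGT 2). The shOGT libraries thus bracketed ctrl for Clk4, while both were higher for Clk2 and Clk3. Exons of Clk3 overlap those of Edc3, on the opposite strand, over 15.2% of their length, and reads there may have been counted for either gene.

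Srpk1 measured 1256 and 1216 in ctrl against 1309 and 1291 in shOGT (0.07, interval -0.04 to 0.19), and Srpk2 2297 and 2478 against 2385 and 2304 (-0.03, interval -0.14 to 0.09). The kinases were the least abundant role per length. Their ctrl level per kb of exon ran from 99.9 for Srpk1 to 172 for Srpk2, with a median of 152, while the SR proteins had a median of 862 and the hnRNPs of 1475. The exon length used here joins all annotated transcripts, retained introns included, which lowers the value per kb of genes such as Clk1.

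**Figure D3:**
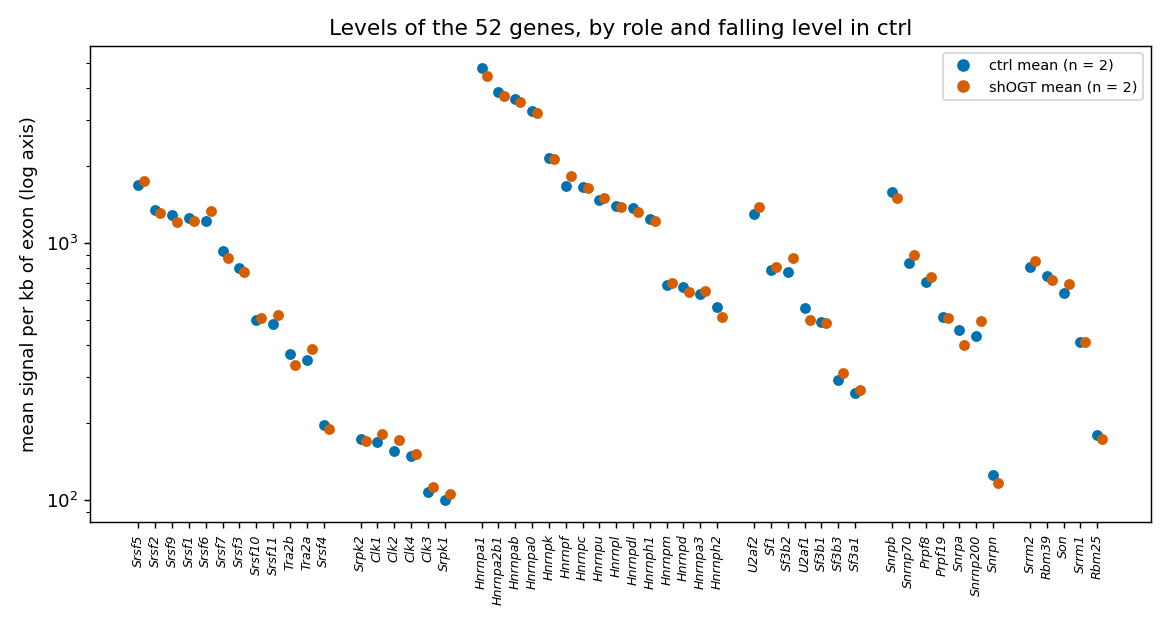
Mean deposited signal per kb of joined exons (vertical log axis) of the 52 genes in ctrl (blue) and shOGT (orange), ordered within each role by the ctrl level. The hnRNPs reach 4818 (Hnrnpa1) and the kinases stay at or below 180 in both groups.

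The hnRNPs coat nascent transcripts and were the most abundant role, with ctrl levels per kb from 564 to 4818. Of 15, 0 passed in limma and 0 in edgeR; at an unadjusted p under 0.05, 1 was higher and 2 lower. The estimates of 11 lay below 0, with a median of -0.03. Hnrnpa1, a repressor of exon inclusion and the highest of the 52 per kb, measured 15166 and 15217 in ctrl against 14438 and 13733 in shOGT, both lower (-0.11 ± 0.03, limma adjusted p = 0.115). Hnrnph2, which binds G-rich tracts, measured 2472 and 2459 against 2205 and 2287, both lower (-0.13 ± 0.04, adjusted p = 0.125). Hnrnpf, of the same G-tract family, measured 5222 and 4970 against 5720 and 5389, both higher (0.12 ± 0.04, adjusted p = 0.154). These relatives thus had opposite signs, and that difference was not tested. Hnrnpc, which binds uridine tracts, measured 7090 and 7129 against 7089 and 7118, the estimate nearest 0 in the set (-0.001, interval -0.08 to 0.08). The remaining 11 ran from -0.07 for Hnrnpd to 0.03 for Hnrnpa3. Exons of Hnrnpab overlap Phykpl, on the opposite strand, over 29.1% of their length. Those of Hnrnpm overlap March2, on the same strand, over 14.7%.

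Recognition of the 3′ splice site gave 1 call of 7, Sf3b2. The U2AF subunits, which bind as a dimer, lay on opposite sides of 0. U2af1, which contacts the terminal AG, measured 1418 and 1472 in ctrl against 1289 and 1313 in shOGT, both lower (-0.15 ± 0.05, limma adjusted p = 0.136). U2af2, which binds the polypyrimidine tract and was the highest of these 7 per kb (1297 in ctrl), measured 5265 and 5408 against 5848 and 5539, both higher (0.09 ± 0.04, adjusted p = 0.248). Sf3b1, the subunit that contacts the branch helix, measured 5651 and 5505 against 5721 and 5409, with overlap (-0.004, interval -0.10 to 0.09). Sf3b3, another SF3B subunit, had 0.08, Sf3a1 of the SF3A complex 0.04 and Sf1 0.04; no test compared these with Sf3b2.

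Of the 7 snRNP and catalytic core proteins, Snrnp200 alone passed. Prpf8, the scaffold of the active site and partner of SNRNP200 in the U5 snRNP, measured 5233 and 5339 in ctrl against 5620 and 5360 in shOGT (0.05, interval -0.03 to 0.14), and Prpf19, a ubiquitin ligase of the catalytic complex, -0.01. The U1 proteins differed in sign. Snrnp70 measured 6206 and 6546 against 6698 and 6988, both higher (0.10 ± 0.04, limma adjusted p = 0.21). Snrpa, which binds a stem-loop of U1 RNA, measured 1387 and 1342 against 1221 and 1154, both lower, the lowest estimate of the 52 (-0.20 ± 0.05, interval -0.32 to -0.08, adjusted p = 0.0695). It passed in limma at a minimum value of 10 (adjusted p = 0.0259). Its exons overlap those of BC024978, on the opposite strand, over 11% of their length.

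Snrpb, the Sm protein found in most tissues, measured 3103 and 3129 in ctrl against 3005 and 2916 in shOGT (-0.07 ± 0.04, limma adjusted p = 0.37). Its imprinted neuronal relative Snrpn, the least abundant of the 52 by total signal, measured 267 and 274 against 257 and 242 (-0.12, interval -0.33 to 0.10). Both shOGT libraries were below both ctrl libraries for each. Snrpn is uncertain, since 27.3% of its exon length overlaps Gm38393 on the same strand and Snrpb is a close relative.

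Among the 5 speckle proteins 0 passed in limma, with 2 higher at an unadjusted p under 0.05, and edgeR called 1 higher. Son, a large scaffold of speckles, measured 9466 and 9628 in ctrl against 10272 and 10366 in shOGT, both higher (0.11 ± 0.03, limma adjusted p = 0.088; 0.13 and 0.0454 with libraries rescaled to equal totals). Srrm2, the other large scaffold, measured 10261 and 10414 against 10977 and 10873, both higher (0.08 ± 0.03, adjusted p = 0.211). Rbm39, a U2AF-related factor, measured 5173 and 5175 against 4953 and 4977, both lower (-0.06 ± 0.04, adjusted p = 0.411). Rbm25 and Srrm1 had -0.06 and -0.01, with overlapping groups.

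The wider machinery was read from 8 lists of 152 other splicing genes, all of which were tested. In limma 1 rose and 6 fell (4.61%, beside 4.86% of all genes), and the median was -0.0008. The Sm and LSm proteins, small subunits that form the rings on spliceosomal snRNAs, gave 2 lower of 13 and had the lowest median of the 8 lists, -0.17, with 12 estimates below 0. Lsm5 measured 387 in both ctrl libraries and 287 and 246 in shOGT (-0.54 ± 0.10, adjusted p = 0.0159), and Lsm3 measured 567 and 554 against 435 and 457 (-0.33, adjusted p = 0.0331). DESeq2 gave them adjusted p values of 0.0219 and 0.12. Both shOGT values were below both ctrl values in 9 of the 13, where 24.3% of all genes tested were lower in this way and 61.7% of the 9108 genes lay apart in either direction.

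In the other U1 and U2 factors 2 of 21 fell in limma. The small SF3B subunits Phf5a (1185 and 1154 against 1008 and 930; -0.27, adjusted p = 0.0342) and Sf3b5 (1311 and 1318 against 1159 and 1075; -0.24, adjusted p = 0.0473) fell in limma, and DESeq2 gave them adjusted p values of 0.0602 and 0.0952. The remaining SF3B subunits of this list, named after their values were seen, had opposite signs. Sf3b4 measured 1690 and 1911 in ctrl against 2114 and 1937 in shOGT, both higher (0.17 ± 0.07, limma adjusted p = 0.20), and Sf3b6 measured 1179 and 1164 against 1043 and 1057, both lower (-0.16 ± 0.05, adjusted p = 0.133). Raly, an hnRNP, was the 1 of 26 related RNA-binding proteins that fell in limma (-0.19, adjusted p = 0.0346). Snrnp27, a tri-snRNP protein, was the 1 of 31 tri-snRNP and catalytic factors that did (-0.24, adjusted p = 0.0474). DESeq2 gave Raly and Snrnp27 adjusted p values of 0.0344 and 0.143. In limma with 1 library left out, estimates ran from -0.33 to -0.21 for Phf5a and from -0.29 to -0.18 for Sf3b5. They ran from -0.22 to -0.16 for Raly and from -0.27 to -0.21 for Snrnp27. Which of the 152 genes passed in limma or edgeR depended on the library left out. Those counts are given further below, beside the counts over all genes.

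The lists of 27 SR-related proteins, 10 other kinases and phosphatases, 9 minor spliceosome factors and 15 genes of the exon junction complex and nonsense-mediated decay gave 0 calls in limma. At an unadjusted p under 0.05 they held 7, 1, 1 and 2 genes, and edgeR called 5, 0, 0 and 1. The smallest p in each belonged to Rsrc1 (-0.20, limma adjusted p = 0.0694), Dyrk2 (-0.24, adjusted p = 0.173), Snrnp25 (-0.23, adjusted p = 0.183) and Rbm8a (-0.17, adjusted p = 0.0787), the last a core protein of the exon junction complex.

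Of the 6 splicing genes that fell, 5 have a main coding transcript of 494 to 1747 bases, and Sf3b5 has one of 3841. Sf3b2 and Snrnp200, which rose, have 3222 and 6745 bases. Across the 52 genes the log2 fold change and the length of the main coding transcript had a Spearman rho of 0.252 and a Pearson r (with log2 length) of 0.299; rho was 0.20 to 0.32 when 1 library was left out. Across the 152 other genes rho was 0.328. These are descriptions across genes that share the same 4 libraries, not independent replicates. Among the 8878 coding genes at or above the lowest level in the set rho was 0.156. Transcripts under 1000 bases had a median change of -0.12 in the splicing lists (n = 17, all outside the 52) and -0.08 among those coding genes (n = 426). From 4000 bases up the medians were 0.03 (n = 57) and 0.01 (n = 3399). Length thus moved with the change, and its part in these results was not tested. GC content of the transcript had a rho of 0.144 across the 52, and of 0.029 without shOGT 1 and 0.301 without shOGT 2.

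**Figure D4:**
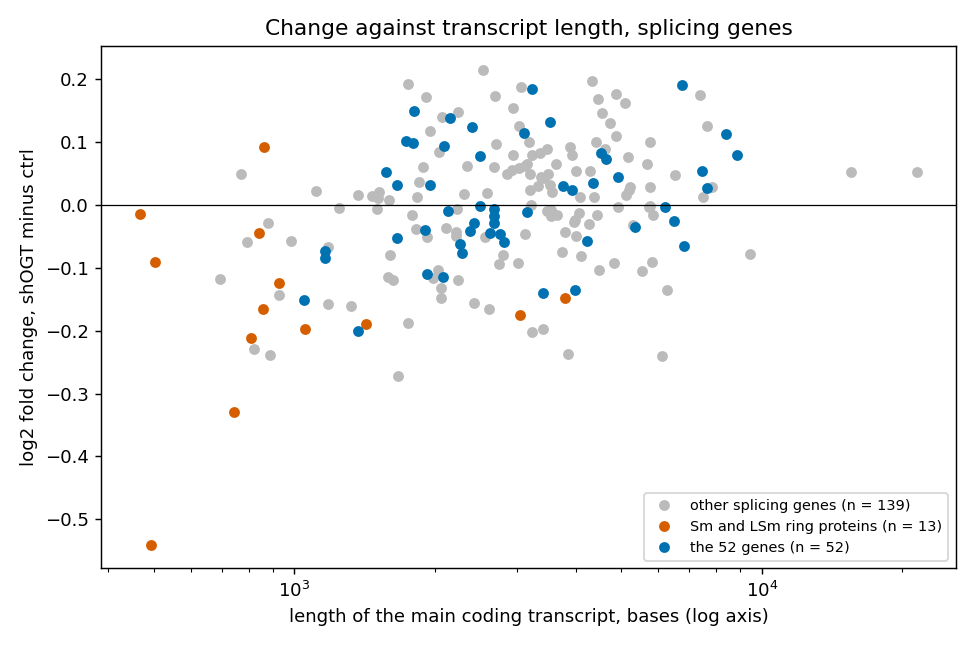
Log2 fold change (shOGT minus ctrl, vertical axis) against the length of the main coding transcript (horizontal log axis) for the 52 genes (blue), the 13 Sm and LSm proteins (orange) and 139 other splicing genes (grey). The orange points sit mostly at short lengths and below 0, and rho over all of them is 0.317.

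The annotated transcript classes were set beside the change of the 52 genes. The median log2 fold change was 0.02 in the 43 genes with a retained-intron transcript and -0.04 in the other 9, and -0.01 in the 36 with a decay transcript against 0.03 in the other 16. For introns held whole inside a retained-intron transcript the medians were -0.004 (29 genes) and -0.03 (23 genes). No test was run on these medians.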

How the data were processed

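Gene-level signal was taken from 4 RNA sequencing libraries, grouped by their titles. The deposited signal is 1 value per gene and library; the authors' genome build is mm10, per the submitters' processing notes, and no source used here names the aligner, counting tool, annotation, strand setting or normalization. In each library 100% of the values were whole multiples of 1 step (0.997, 0.992, 1.06 and 0.943 in ctrl 1, ctrl 2, shOGT 1 and shOGT 2) within 0.01 of a step, the form of reads divided by 1 factor per library; reads were recovered this way. The main test was limma 3.58.1 (R 4.3.3) with a variance trend on log2(value + 1), for the 21829 genes that reached a value of 1 in 2 or more libraries, with Benjamini-Hochberg adjustment over all of them; folds on this scale understate changes of low genes. The filter was reapplied when a library was left out. edgeR 4.0.16 (quasi-likelihood, TMM) and DESeq2 1.42.0 were run on the recovered reads. Scripts were tested on simulated data.

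Symbols, exons and transcripts came from GENCODE M21 (25242 identifiers matched, 19 did not). The members and lists were chosen with earlier results of these data known. Named genes were Ogt, the called members, up to 3 of smallest p and the most abundant per kb in each role, the CLK genes, Srsf1, Srsf2, Srsf3 and Snrpn, and in each other list up to 3 called genes or the 1 of smallest p (1 such gene is not reported here); further members are given to cover the set. With 2 against 2 libraries an exact permutation test cannot reach 0.05. Replicates differed by more than sampling noise (chi-square per gene 2.02 in ctrl and 3.33 in shOGT, over genes of at least 20 reads, where noise gives 1).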

Additional observations from a re-analysis of the deposited data

How the results depend on the processing

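Over 14 alternatives, and 2 kinds added after the data were seen (a minimum of 10 with quantile normalization, and edgeR without each library), the counts moved more than the estimates. Given as all genes higher and lower, then members higher and lower, then other splicing genes higher and lower, the counts were 427, 633, 2, 0, 1 and 6. They were 0 throughout without a filter, with quantile normalization and without the variance trend, with 4302, 3998 and 2763 genes (14, 15 and 0 members) at an unadjusted p under 0.05 in limma. At a minimum of 10 they were 822, 1133, 3, 1, 5 and 15, and with quantile normalization added 799, 858, 5, 0, 7 and 11. edgeR gave 855, 1110, 5, 1, 8 and 14, and DESeq2 310, 484, 2, 0, 0 and 2. A pseudocount of 0.5 gave 0 other splicing genes higher, and equal totals 3. With 1 library left out, limma gave 0 to 573, 0 to 660, 0 to 2, 0, 0 to 1 and 0 to 4, with 0 throughout without either shOGT library (3229 and 3186 genes at an unadjusted p under 0.05); the lone library is assumed to vary like the other group. edgeR gave 168, 297, 0, 0, 0 and 1 without ctrl 1, 182, 260, 0, 0, 0 and 0 without ctrl 2, 930, 1190, 6, 4, 6 and 17 without shOGT 1, and 952, 1286, 7, 2, 11 and 14 without shOGT 2. The members' median log2 fold change was -0.0051; it was 0.0222 with quantile normalization at either minimum, -0.0263 to 0.0170 with 1 library left out in limma and 0.0210 without shOGT 2 in edgeR. Without shOGT 2, Clk4 changed sign in limma (-0.0619, where the 4 fits ran from -0.0619 to 0.1246) and edgeR (-0.0579), as did Srsf2 (0.0195, range -0.0985 to 0.0195, and 0.0236). The cause of these shifts was not tested.

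With the replicate number as a replicate block the counts were 1007, 1295, 6, 3, 9 and 15. The labels do not tie equal numbers together, and deviations of ctrl 1 and shOGT 1 from their group means had a correlation of 0.0281 across genes, so the numbers were not treated as pairs. The standard error was largest for Snrpn, the least abundant member; it also differed between members of like level, such as Srsf4 (0.0826, ctrl mean 696) and Clk2 (0.0586, ctrl mean 824).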
